A study of Mus musculus with 52 samples.

Results

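The drug and steroid metabolizing enzymes are described here as 155 of the 21885 protein-coding genes counted in this series of mouse endothelial cell (EC) libraries. They are the protein-coding genes whose symbols begin with Cyp1, Cyp2, Cyp3, Cyp4, Gsta, Gstm, Gstp, Gstt, Gsto, Ugt1, Ugt2 or Sult, with Cyp2e1 left out. Because these are literal prefixes, genes such as Cyp11a1, Cyp19a1, Cyp26b1 and Cyp46a1 belong to the set. Of the 155 genes, 44 reached a TPM of 1 (the deposited transcript abundance, scaled for transcript length and library size) in both replicates of at least 1 of the 20 RNA groups and are called expressed below.

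Cytochrome P450s (CYP) add oxygen to drugs, fatty acids, steroids and retinoids. Glutathione S-transferases (GST) join glutathione to reactive products, UDP-glucuronosyltransferases (UGT) attach glucuronic acid and sulfotransferases (SULT) attach sulfate, which makes many substrates easier to export. The liver is the main site of this chemistry, and in the brain these enzymes are known from ECs, glia and choroid plexus epithelium as well as from neurons.

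The study asked how beta-catenin signaling shapes barrier and non-barrier EC gene expression, and all mice were adult males. Sorted GFP-positive cells (labelled vascular ECs) and GFP-negative cells (labelled non-endothelial) came from the cerebellum, whose ECs form the blood-brain barrier, and from the anterior and posterior pituitary, whose ECs are permeable. WT sorted samples had the genotype Tie2-GFP and carried no CreER, whereas the beta-catenin stabilized samples were Tie2-GFP; Pdgfb-CreER; BcatEx3fl and had received 100 ug of 4-hydroxytamoxifen (4HT) at P10, so that the groups also differ in CreER and 4HT. Each pituitary replicate pooled 20-30 mice aged P30 to P90. In the RiboTag samples, from mice aged 6-8 weeks, RNA on EC ribosomes was captured through a tagged ribosomal protein (bound) and set beside whole-tissue RNA (input), with RiboTag; Pdgfb-CreER as WT and RiboTag; Pdgfb-CreER; BcatEx3fl as stabilized, so that here both genotypes carried CreER and, per the study's text, both had been injected with 4HT some weeks earlier. Each choroid plexus sample pooled tissue from 3-4 animals. Pdgfb-CreER acts in ECs, and recombination there need not be complete. Bound and input RNA came from one homogenate, and GFP-positive and GFP-negative cells from one dissociation, so these fractions were also compared in pairs by replicate number, and the paired adjusted p is given where it changes a call. Every group had 2 replicates. Each edgeR fit of the read counts held several groups, so a p-value rests on the replicate spread of all groups in its fit. ECs were compared with GFP-negative cells in a fit of all sorted libraries. Bound and input RNA were compared in a fit of all RiboTag libraries. The other comparisons used fits of all GFP-positive, all GFP-negative, all bound or all input libraries. Where a library is left out below, its group had no spread left, and the p-value rests on the other groups.

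The libraries held 12157485 to 37529274 estimated reads in the 24 sorted samples and 6409013 to 21399125 in the 16 RiboTag samples. Transcripts shorter than 300 nt held 34.7-38.8% of TPM in the 4 WT cortex libraries and 69.7-76.9% in the other 12 RiboTag libraries, from 0.648-3.89% of reads in any library. Levels below are therefore given as coding TPM, that is, TPM rescaled so that the protein-coding genes of the nuclear chromosomes alone make up the total. Fold changes come from read counts and need not equal a ratio of coding TPM. Genotype and library composition cannot be told apart in the cortex, where the stabilized libraries (69.7-73.9%) differ from WT in this share. Summed EC markers (8 genes, all with reads in GFP-positive cells) reached 2505-7127 coding TPM in GFP-positive libraries and 4.70-75.4 in GFP-negative ones. In the bound fractions they reached 581-1678, against 86.0-124 in input. RNA of other cells was present as well: the 6 pituitary hormone genes summed to 1146-15990 coding TPM in pituitary ECs and to 110000-183100 in the GFP-negative cells beside them, and 7 choroid plexus epithelium genes to 97150 and 97500 in WT choroid plexus bound RNA against 242300 and 246600 in input. In WT cortex bound RNA 4 microglia genes summed to 2618 and 1879 coding TPM, above the EC markers of the same libraries (1170 and 581), against 105.4 and 100.2 in input. The 2 erythrocyte genes summed to 115000 and 15660 coding TPM in WT cerebellum ECs and to 37690 and 824 in the GFP-negative cells. They summed to 4675 and 2380 in WT anterior and 7815 and 3748 in WT posterior pituitary ECs, and their part was not tested. In bulk samples, fewer cells of a type and less RNA per cell cannot be told apart. One stabilized anterior pituitary GFP-positive library (replicate 2) has a tissue label of posterior pituitary although its title says anterior, and it is counted as anterior. The Wnt target Axin2 was at 0.639 and 0.982 coding TPM in WT and at 90.1 and 99.96 in stabilized posterior pituitary ECs.

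Sequences are shown for the 3 sites that the results on Gstm7, Cyp26b1 and Cyp1a1 turn on. The first is the centre of a chromatin region 3′ of Gstm7 that was accessible in stabilized but not in WT pituitary ECs (build GRCm38, plus strand, chr3:107923542-107923742), with the letters ATCAAAG and TTCAAAG, the core to which TCF/LEF factors bind, in capitals. The others are promoters from 250 bases before to 50 after the start site, taken from the RefSeq annotation of GRCm38.p6. They are Cyp26b1 (minus strand, chr6:84593761-84594060), with TATAAA in capitals, and Cyp1a1 (plus strand, chr9:57697363-57697662), with GCGTG, the core to which the aryl hydrocarbon receptor binds, and TATAAA in capitals. A match to these letters is a description of the sequence and not a shown binding site.
Gstm7 gained peak: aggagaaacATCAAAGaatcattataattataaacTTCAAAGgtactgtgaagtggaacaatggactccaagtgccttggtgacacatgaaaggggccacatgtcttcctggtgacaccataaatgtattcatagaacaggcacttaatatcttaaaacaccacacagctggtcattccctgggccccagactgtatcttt
Cyp26b1: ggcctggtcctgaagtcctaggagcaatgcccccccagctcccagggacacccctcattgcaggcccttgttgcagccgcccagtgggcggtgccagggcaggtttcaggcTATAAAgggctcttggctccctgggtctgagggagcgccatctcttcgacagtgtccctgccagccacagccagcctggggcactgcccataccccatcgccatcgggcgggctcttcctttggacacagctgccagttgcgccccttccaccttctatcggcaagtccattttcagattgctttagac
Cyp1a1: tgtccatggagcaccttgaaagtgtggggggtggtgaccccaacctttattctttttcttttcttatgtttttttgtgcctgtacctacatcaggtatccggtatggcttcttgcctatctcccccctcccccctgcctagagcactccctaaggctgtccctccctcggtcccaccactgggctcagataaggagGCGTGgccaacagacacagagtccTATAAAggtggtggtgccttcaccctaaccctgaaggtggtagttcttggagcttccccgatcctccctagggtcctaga

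The expressed genes were spread unevenly over the families. Of the GST classes, omega had 2 of 2 genes expressed, mu 6 of 7, theta 3 of 4, pi 2 of 3 and alpha 2 of 4. Of the fatty acid P450s (Cyp2j, Cyp2u and Cyp4), 13 of 29 were expressed, against 5 of 50 drug P450s, 4 of 9 P450s of retinoids, vitamin D and sterols, 5 of 21 SULT genes and 1 of 19 UGT genes. Among these, Cyp2j5 and Sult1d1 were expressed in 1 group each. They and Ugt1a7c, the UGT gene, had their highest mean in WT cortex bound RNA, whose libraries also held kidney tubule transcripts, as given below. None of the 6 P450s of steroid hormone synthesis was expressed. Cyp19a1, which makes estrogen from androgen, was at 21.1 coding TPM in 1 WT cortex input library and at 0 in the other.

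Of the 111 genes not expressed, 51 had no read in any library, and 17 had a group mean of 1 TPM or more with 1 library of the group below 1 TPM. The highest of these, Sult2a8, was at 0.321 and 181 coding TPM in WT posterior pituitary GFP-negative cells. The nearest genes on the outside of the 1 TPM threshold were Sult6b1 at 0.991 and Sult5a1 at 0.966 deposited TPM, and the nearest inside were Gsto2 at 1.08 and Cyp4f17 at 1.2. A group held 12 to 27 expressed members. Nuclear protein-coding genes made up 14.1-55.8% of deposited TPM in a library, so 1 TPM is not the same coding level in every group. These counts are therefore not compared between groups. Cyp20a1, a P450 without a settled substrate, and Gsta4, Gstm1 and Gstp1 were expressed in all 20 groups.

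**Figure D1:**
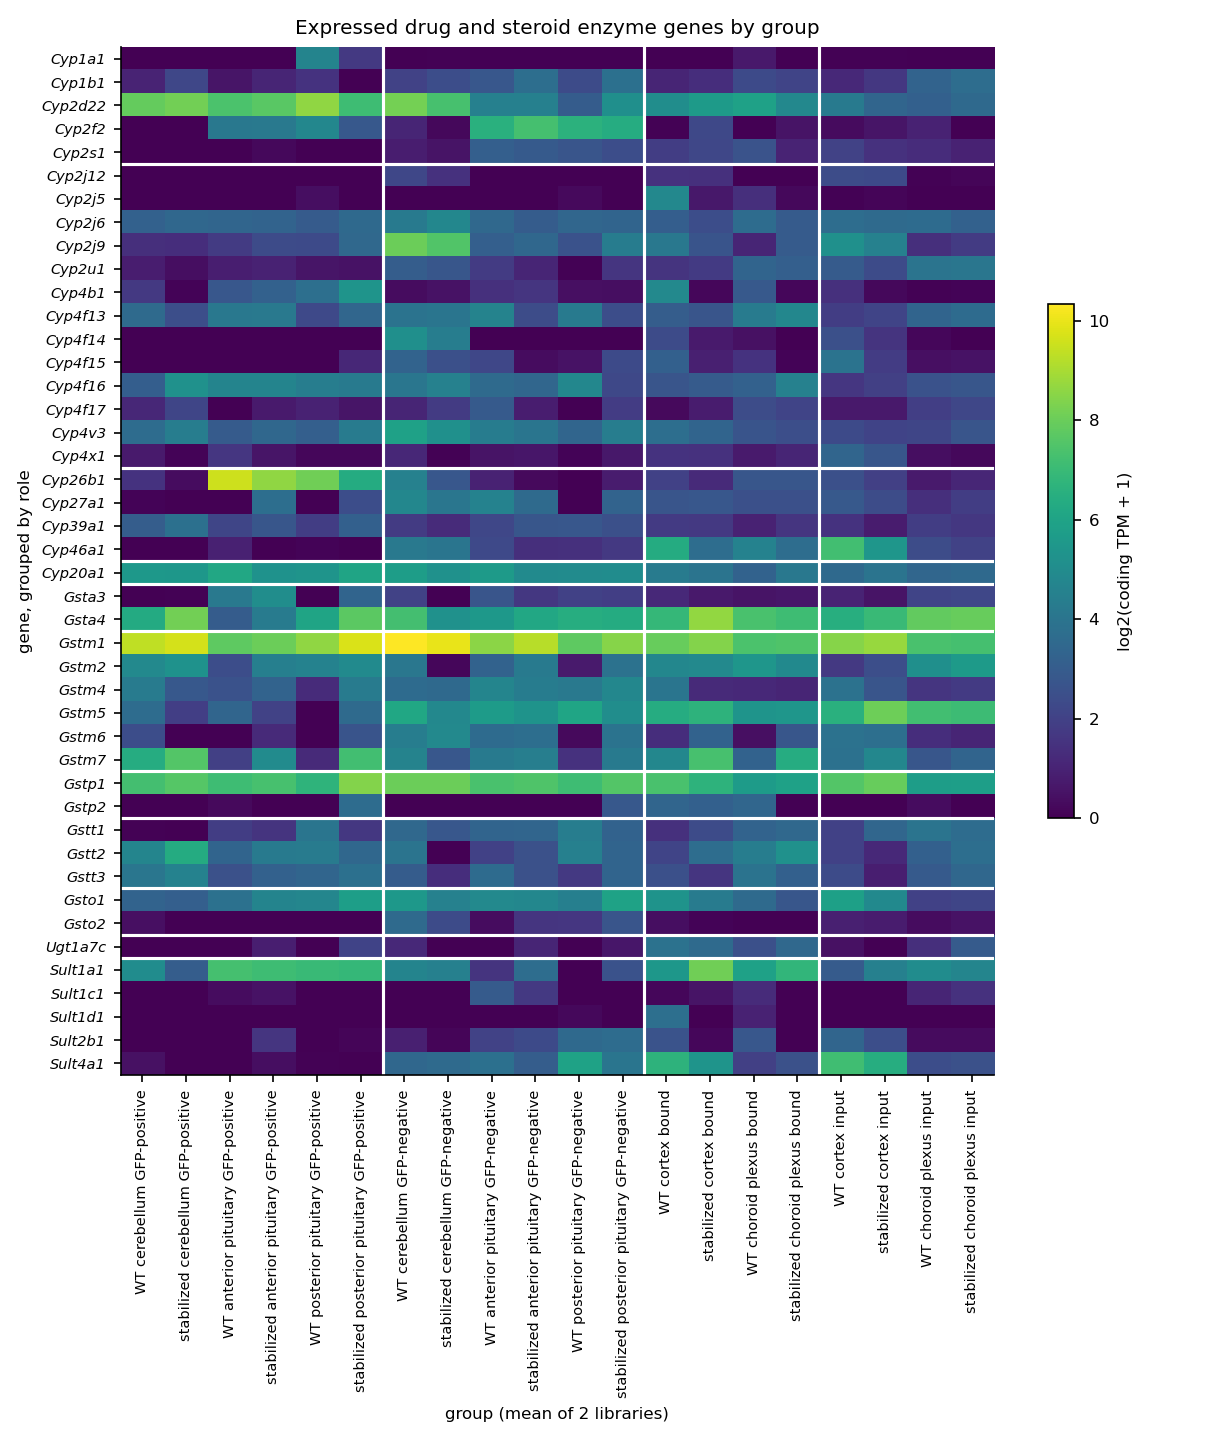
Colour shows log2(coding TPM + 1), from the mean of 2 libraries, of the 44 expressed genes (rows, by role) in 20 groups (columns, by fraction). Gstm1 and Gstp1 are bright in every column, whereas Cyp26b1 is bright only in the 4 pituitary EC columns.

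Gstm1 had the highest mean coding TPM of all members in 14 of the 20 groups. In WT cerebellum it was at 1533 and 1063 coding TPM in GFP-negative cells and at 439 and 862 in ECs, in anterior pituitary ECs at 196 and 236 and in posterior pituitary ECs at 391 and 398. Both cerebellum EC libraries were thus above all 4 WT pituitary EC libraries, although the test given below passed only against the anterior lobe. Gstp1, whose product conjugates a wide range of electrophiles, was at 159 and 146 coding TPM in WT cerebellum ECs, 143 and 133 in anterior pituitary ECs and 165 and 44.0 in posterior pituitary ECs, and these groups overlapped. Only 71.2% of the 31-base words of Gstm1 transcripts and 61.5% of those of Gstp1 are unique to the gene, so that the counting could split reads with close copies. The corresponding shares are 97.4% for Gstm7, 93.1% for Cyp2d22, 90.7% for Sult1a1 and 100% for Cyp26b1 and Gsta4. They are lower for Ugt1a7c (44.3%) and Ugt1a6a (47.0%), which share words most with each other.

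Of the smaller classes, Gsto1, which reduces dehydroascorbate, was at 5.89 and 11.4 coding TPM in WT cerebellum ECs against 51.4 and 37.3 in GFP-negative cells, and the theta class Gstt2 was at 26.5 and 23.9 against 22.04 and 7.24. Cyp20a1 had its lowest library at 5.54 coding TPM and its highest at 92.6, in WT anterior pituitary ECs (replicate 2).

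Pituitary ECs were set apart by Cyp26b1 (chr6:84571414-84593908, GRCm38, minus strand), whose product breaks down retinoic acid. WT anterior pituitary ECs held 721 and 773 coding TPM and posterior pituitary ECs 269 and 279, whereas WT cerebellum ECs held 2.52 and 1.21. All 4 pituitary EC libraries were above both cerebellum libraries. Between WT cerebellum and anterior pituitary ECs, 4 of 40 members tested passed, against 5.26% of all genes. To pass, a gene needed at least a 2-fold difference with an adjusted p below 0.05 in edgeR's quasi-likelihood test. Higher in cerebellum were 2 members (3% of all genes), and 2 were lower (2.26%). Cyp26b1 was lower in cerebellum by a log2 fold change of -8.61 ± 0.86 (SE, adjusted p = 4.95e-05). Between cerebellum and posterior pituitary ECs it was 4 of 40, against 4.4% of all genes, 1 higher (2.3%) and 3 lower in cerebellum (2.1%), with Cyp26b1 at -7.16 ± 0.81 (adjusted p = 0.000184). Both calls held without any 1 library.

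Within each pituitary lobe, Cyp26b1 RNA was far higher in the ECs than in the other cells. GFP-negative cells of the WT anterior pituitary held 1.68 and 0.315 coding TPM and those of the posterior pituitary 0.00915 and 0.0181, the latter from 2 estimated reads in all. The 6 astrocyte genes also summed to more in WT anterior pituitary ECs (1257 and 1073 coding TPM, Gfap without a read) than in GFP-negative cells (43.99 and 110.5), with 743 and 126 against 63.8 and 164.5 in the posterior lobe and 258 and 246 in cerebellum ECs, and their part was not tested. The log2 fold change of Cyp26b1, ECs over GFP-negative cells, was 9.46 ± 1.08 (adjusted p = 1.34e-05) in the anterior lobe. In the posterior lobe the normalized ratio was 23400, with a 95% interval of 6470 to 193000 that covers counting error only (adjusted p = 1.41e-06). The cerebellum had the opposite order, with 22.2 coding TPM in each GFP-negative library, and there Cyp26b1 was lower in ECs (log2 fold change -3.33 ± 0.83, adjusted p = 0.0114), a call lost without WT cerebellum GFP-positive replicate 2 (-2.87, adjusted p = 0.0690).

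Chromatin at the Cyp26b1 promoter followed the same tissue order. ATAC-seq peaks within 1000 bases of its start were found in none of the 4 cerebellum EC libraries. All 4 anterior pituitary libraries had one, with fold enrichments over background of 5.05 and 7.24 in WT and 6.4 and 5.89 in stabilized ECs. In the posterior pituitary, WT replicate 1 had no peak, WT replicate 2 had 3.40 and the stabilized libraries 4.52 and 3.33. The promoter printed above holds 1 TATAAA, a sequence found on either strand in 13.6% of the 32851 RefSeq promoters. For the 155 members, 127 matched a promoter in that table.

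Cyp2d22, a P450 of the drug-oxidizing 2D family (chr15:82370527-82380260), was higher in ECs than in GFP-negative cells of both pituitary lobes, and this difference was not compared with the cerebellum by a test. WT anterior pituitary ECs held 129 and 210 coding TPM against 19.9 and 23.4 in GFP-negative cells, and posterior pituitary ECs 274 and 520 against 9.39 and 4.69. In cerebellum, ECs (197 and 280) overlapped GFP-negative cells (305 and 269). In the anterior lobe 6 of 60 members tested passed (11.3% of all genes), 3 higher in ECs (5.46% of all genes) and 3 lower (5.87%), and Cyp2d22 had a log2 fold change of 2.72 ± 0.48 (edgeR adjusted p = 0.000771). In the posterior lobe 7 of 60 passed (14.5% of all genes), 5 higher (7.07% of all genes) and 2 lower (7.45%), and Cyp2d22 had 4.83 ± 0.53 (adjusted p = 4.62e-06). Neither call was lost without any 1 library. The 7 mural cell genes also summed to more in the pituitary EC libraries (496.8 and 534.8 coding TPM in WT anterior, 282 and 203 in posterior) than in GFP-negative cells (63.2 and 45.8, 61.8 and 10.8), and to 1605 and 1698 in WT cerebellum ECs against 667 and 424, and the part of mural cells in this and the other differences between these fractions was not tested.

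Sult1a1, which sulfates phenols and estrogens (chr7:126672865-126676432), had high levels in pituitary ECs as well. WT anterior pituitary ECs held 151 and 159 coding TPM against 3.63 and 0.285 in GFP-negative cells, and posterior pituitary ECs 107 and 145 against 0 in both GFP-negative libraries. With no read in the latter group, ECs were at least 944-fold higher (3 reads over the group as the floor, adjusted p = 0.00666, kept without any 1 library). In the anterior lobe the log2 fold change was 7.0 ± 2.14 (adjusted p = 0.0413), lost without GFP-negative replicate 1 (9.14, adjusted p = 0.0518) or replicate 2 (6.34, adjusted p = 0.143) and in pairs (7.47, adjusted p = 0.0609). The mural genes given above were higher in the same EC libraries. WT cerebellum ECs held 34.7 and 29.2, within the wide range of the GFP-negative cells (0 and 49.1).

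Cyp1a1, the classical target of the aryl hydrocarbon receptor and an oxidizer of aromatic compounds (chr9 promoter above), had reads among sorted ECs only in the posterior pituitary. WT posterior pituitary ECs held 38.1 and 10.9 coding TPM, stabilized ones 3.02 and 1.61, and the cerebellum and anterior pituitary EC libraries 0. Against posterior pituitary GFP-negative cells, without a read, ECs were at least 503-fold higher (adjusted p = 0.0297), and against WT cerebellum ECs at least 583-fold higher (adjusted p = 0.0291). The first call was lost without GFP-negative replicate 1 (adjusted p = 0.0987) or 2 (0.0906) or GFP-positive replicate 1 (0.104), in pairs (0.116) and with DESeq2 (0.224). The second was lost with DESeq2 (0.133) and without cerebellum GFP-positive replicate 1 (0.0935) or 2 (0.0773) or posterior pituitary GFP-positive replicate 1 (0.0902). A promoter peak was present in 1 of 12 ATAC-seq libraries, WT posterior pituitary replicate 1, with a fold enrichment of 3.73. GCGTG occurs on either strand in 32.4% of promoters. The receptor gene Ahr was at 54.5 and 21.6 coding TPM in WT posterior pituitary ECs and at 3.48 and 12.8 in WT cerebellum ECs (log2 fold change of cerebellum over posterior pituitary -3.07 ± 0.49, adjusted p = 0.00245). In WT anterior pituitary ECs, where Cyp1a1 had no read, Ahr was at 22.2 and 23.3. Ahr was higher in ECs than in GFP-negative cells of the posterior (log2 fold change 5.61 ± 1.03, edgeR adjusted p = 0.000824) and the anterior lobe (3.40 ± 0.92, adjusted p = 0.0208). Tiparp, another target of the receptor, was lower in posterior pituitary ECs (11.6 and 37.6) than in GFP-negative cells (58.9 and 172.9, -2.66 ± 0.44, adjusted p = 0.000353). Tiparp was also lower in anterior pituitary ECs than in GFP-negative cells (-1.43 ± 0.43, adjusted p = 0.0346).

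Cyp2f2, which oxidizes naphthalene, had reads in both sorted fractions of the pituitary. GFP-negative cells held 86.0 and 99.9 coding TPM in the WT anterior and 80.6 and 118 in the posterior lobe. ECs held 20.8 and 12.5 and then 32.9 and 20.6, and the unpaired differences did not pass (edgeR adjusted p = 0.144 and 0.320). In pairs, ECs were lower in the anterior lobe (-2.9 ± 0.71, adjusted p = 0.0213) but the posterior difference did not pass (-1.84 ± 0.68, adjusted p = 0.109). WT cerebellum ECs had no read, so that Cyp2f2 was at least 373-fold lower there than in posterior pituitary ECs (adjusted p = 0.00693) and at least 145-fold lower than in anterior pituitary ECs (adjusted p = 0.00964, lost without cerebellum GFP-positive replicate 1, adjusted p = 0.0539). Pituitary hormone genes were present in the same EC libraries, as given above, and their part in these values was not tested.

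Cerebellum ECs held more Gsta4 and Gstm1 than anterior pituitary ECs and more Gstm7 than posterior pituitary ECs, and no GST gene passed against both lobes. Gsta4, which clears 4-hydroxynonenal from lipid peroxidation (chr9:78182774-78209349), was at 72.2 and 84.4 coding TPM in WT cerebellum ECs, 3.06 and 11.1 in anterior pituitary ECs and 66.3 and 63.1 in posterior pituitary ECs. Cerebellum exceeded the anterior pituitary by a log2 fold change of 3.25 ± 0.59 (adjusted p = 0.00467), and Gstm1 did so by 1.70 ± 0.28 (adjusted p = 0.00253). These calls held without any 1 library. Against the posterior pituitary neither passed (0.56 ± 0.54, adjusted p = 0.684, and 0.54 ± 0.28, adjusted p = 0.398). Between the 2 pituitary lobes Gsta4 was the only 1 of 40 members to pass, against 0.994% of all genes (0.653% lower), and it was lower in anterior ECs (-2.69 ± 0.58, adjusted p = 0.0499). Without anterior pituitary GFP-positive replicate 1 that call was lost (-2.03, adjusted p = 0.160). Gsta4 was also lower in anterior pituitary ECs than in GFP-negative cells (64.8 and 24, log2 fold change -2.67 ± 0.63, adjusted p = 0.00805), which was lost without GFP-negative replicate 1 (adjusted p = 0.175) or GFP-positive replicate 1 (0.152).

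Gstm7 was at 71.5 and 94.0 coding TPM in WT cerebellum ECs and, in WT pituitary ECs, at 5.53 and 0.223 in the anterior and 2.72 and 0 in the posterior lobe. The gene lies in the GST mu cluster (chr3:107926334-107931817, minus strand). Cerebellum exceeded the posterior pituitary by a log2 fold change of 6.23 ± 1.48 (adjusted p = 0.0307), a call that rested on posterior pituitary replicate 2, the library without a read, since without it the value was 5.39 (adjusted p = 0.0593). Against the anterior pituitary Gstm7 did not pass (4.13 ± 1.31, adjusted p = 0.111). No member other than Gstm7 was higher in cerebellum than in posterior pituitary ECs by the test, against 2.3% of all genes higher.

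In WT cerebellum, 6 of 60 members passed between ECs and GFP-negative cells (11.3% of all genes), all 6 lower in ECs (6.89%). Cyp2j9, of the arachidonic acid epoxygenase family, was at 322 and 191 coding TPM in GFP-negative cells and 1.91 and 1.40 in ECs (log2 fold change -6.97 ± 1.73, adjusted p = 0.0115). Cyp4f14, which hydroxylates leukotrienes, was at 47.4 and 21.8 against no read, or at least 667-fold lower in ECs (adjusted p = 0.0115). Both were lost without WT cerebellum GFP-positive replicate 1 (adjusted p = 0.0516 and 0.0633). The others, besides Cyp26b1, were Cyp46a1 (5.45 and 28.7 against no read, adjusted p = 0.0459), Cyp2f2 (0 and 2.17 against no read, adjusted p = 0.0153) and Cyp4v3 (74.3 and 44.6 against 11.2 and 11.9, adjusted p = 0.0415). Cyp46a1 was lost without GFP-negative replicate 2 (0.138) or GFP-positive replicate 1 (0.225) or 2 (0.187) and in pairs (0.135), and Cyp2f2 without the same libraries (1.0, 0.0849 and 0.0549). Cyp4v3 was lost without GFP-negative replicate 1 (0.309) or GFP-positive replicate 1 (0.195) or 2 (0.196) and in pairs (0.0655). WT cerebellum GFP-negative replicate 2 held 21920 coding TPM of the 7 choroid plexus epithelium genes against 156 in replicate 1, the same library that held all Cyp2f2 reads, and the part of those cells in that value was not tested.

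Among the genes lower in pituitary ECs, Sult4a1, the neuronal member of its family, was at 14.1 and 12.0 coding TPM in anterior and 30.9 and 93.0 in posterior pituitary GFP-negative cells. Anterior ECs had no read, or at least 334-fold less (adjusted p = 0.00689), and posterior ECs had 1, a ratio of 0.000397 (95% counting interval 1e-05 to 0.00221, adjusted p = 0.00464). Gstm5 was at 24.3 and 109 in posterior GFP-negative cells against no read in ECs, at least 173-fold lower (adjusted p = 0.00522). Its transcripts share no 31-base word with another gene (100% unique). The 7 Gstm genes summed, which include Gstm1 at 391 and 398 in these ECs, had a log2 fold change of 0.64 (adjusted p = 0.280). The calls for Sult4a1 and Gstm5 held without any 1 library. Cyp27a1, the mitochondrial sterol 27-hydroxylase, was at 2.82 and 43.5 in anterior GFP-negative cells against no read in ECs, at least 129-fold lower (adjusted p = 0.0222), which was lost without GFP-negative replicate 2 (0.0981) or either GFP-positive replicate (0.118 and 0.127) and in pairs (0.101). Gstm2 was the remaining gene higher in posterior pituitary ECs (31.3 and 14.6 against 0.995 and 0.407, log2 fold change 4.59 ± 1.32, adjusted p = 0.0230), lost without GFP-negative replicate 1 (0.0619) or 2 (0.173) or GFP-positive replicate 1 (0.0743) and in pairs (0.0644).

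In cortex bound RNA, Sult1a1 and Gstm2 stood above whole tissue. In WT cortex Sult1a1 was at 57.8 and 29.5 coding TPM in bound RNA and 7.34 and 6.41 in input, and Gstm2 at 33.6 and 20.3 against 1.95 and 2.63. Of 51 members tested 8 passed (11.6% of all genes), 5 higher in bound RNA (7.46% of all genes) and 3 lower (4.18%). The log2 fold changes, bound over input, were 2.44 ± 0.38 for Sult1a1 (adjusted p = 0.000717) and 3.28 ± 0.44 for Gstm2 (adjusted p = 0.000210), and both held without any 1 library. In the same libraries summed EC markers were at 1170 and 581 coding TPM in bound RNA against 106 and 86.0 in input, and the 4 microglia genes at 2618 and 1879 against 105.4 and 100.2, and the part of microglia was not tested. The 7 Gstm genes summed had the opposite direction, -0.55 (adjusted p = 0.0231), and 87.8% of the 31-base words of Gstm2 are unique to it.

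Ugt1a7c, a glucuronosyltransferase of the Ugt1a cluster, was at 17.6 and 9.94 coding TPM in WT cortex bound RNA and 0.102 and 0.623 in input (log2 fold change 5.05 ± 0.82, adjusted p = 0.00125). The summed Ugt1a cluster gave 3.89 (adjusted p = 0.000221). Cyp2j5, at 44.6 and 10.6 against 0 and 0.0786, also passed (ratio 642, 95% counting interval 115 to 25400, adjusted p = 0.00563), but not without input replicate 1 (adjusted p = 0.0510). Transcripts of kidney tubule (Kap, Umod, Slc34a1 and Miox, a list chosen after seeing the data) moved with these genes: the 4 summed to 1713 and 210.1 coding TPM in WT cortex bound RNA, 36.6 and 8.97 in input and 5.61 and 14.6 in stabilized cortex bound RNA, and their part was not tested. Cyp4v3, an omega-hydroxylase, was higher in bound RNA (1.55 ± 0.43, adjusted p = 0.0270), lost without bound replicate 1 (0.0611) or input replicate 1 (0.136) or 2 (0.0520).

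The neuronal cholesterol 24-hydroxylase Cyp46a1 was at 156 and 138 coding TPM in WT cortex input and 83.9 and 78.7 in bound RNA (log2 fold change -1.13 ± 0.34, adjusted p = 0.0377). Bound RNA of the cortex still held 2610 and 3211 coding TPM of 5 neuron genes, against 5853 and 6008 in input. That call was lost without any 1 of the 4 libraries (log2 -0.73 to -0.94, adjusted p of 0.297 to 0.467). The others lower in bound RNA were Cyp2u1 (-1.70 ± 0.34, adjusted p = 0.00416), lost without bound replicate 1 (0.0768) or input replicate 2 (0.0607), and Sult5a1, which had 20 reads in input and none in bound RNA and was lost without any 1 library (0.164 to 0.245) and in pairs (0.154).

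In the choroid plexus, GST genes were among those lower in bound RNA than in whole tissue. Gstm5 was at 141 and 151 coding TPM in WT input and 43.5 and 37.0 in bound RNA (log2 fold change -2.0 ± 0.20, adjusted p = 2.86e-05), and Gsta4 at 231 and 226 against 185 and 141 (-1.39 ± 0.21, adjusted p = 0.000441). Both calls held without any 1 library. Of 51 members 6 passed (15.3% of all genes), 3 higher in bound RNA (8.67% of all genes) and 3 lower (6.64%). The third lower gene, Gstm7, had a log2 fold change of -1.45 ± 0.46 (adjusted p = 0.0411), yet its coding TPM was not lower in bound RNA (5.08 and 12.1 against 7.39 and 4.39), and the call was lost without bound replicate 1 (0.169) or input replicate 1 (0.253) and in pairs (0.0784). The 3 higher genes, Cyp26b1 (2.05 and 9.6 against 0.778 and 0.558), Cyp4b1 and Cyp2j5, were each lost without bound replicate 2 (adjusted p = 0.468, 0.128 and 0.189) or without either input library (0.100 to 0.225), and in pairs Cyp26b1 (0.0626) and Cyp2j5 (0.0524) were lost. In pairs only, Sult4a1 was lower (4.02 and 1.83 against 5.44 and 3.44, -1.3 ± 0.34, adjusted p = 0.0179, 0.130 unpaired) and Cyp46a1 higher in bound RNA (29.8 and 16.3 against 5.05 and 3.60, 1.04 ± 0.28, adjusted p = 0.0233, 0.0644 unpaired). The 4 kidney tubule genes summed to 60.1 and 63.4 coding TPM in the same bound libraries and to 0 and 0.0558 in input, and their part was not tested.

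Between cortex and choroid plexus bound RNA, 8 of 43 members passed (29.7% of all genes), 5 higher in cortex (15.8% of all genes) and 3 lower (13.9%). Short transcripts held 34.7 and 37.3% of TPM in these WT cortex libraries and 73.5 and 72.5% in the choroid plexus ones. Tissue and library composition cannot be told apart here. Sult4a1, at 86.6 and 116 coding TPM in WT cortex against 4.02 and 1.83 in choroid plexus, had a log2 fold change of 4.49 ± 0.61 (adjusted p = 0.000601), and Cyp2u1, at 0.658 and 3.21 against 9.24 and 9.11, one of -2.88 ± 0.55 (adjusted p = 0.00374). These 2 held without any 1 library. The 5 neuron genes summed to 2610 and 3211 coding TPM in cortex bound RNA and 66.0 and 50.0 in choroid plexus bound RNA, and the 7 choroid plexus epithelium genes to 121.7 and 97.96 and then 97150 and 97500. The 4 kidney tubule genes summed to 1713 and 210.1 and then 60.1 and 63.4 in the same libraries, and the part of these cells was not tested. Cyp46a1 and Cyp4f13 were lost without choroid plexus bound replicate 2 (adjusted p = 0.0859 and 0.0523), and Gstm7 without choroid plexus bound replicate 1 (0.182) or cortex bound replicate 2 (0.107). Gstp1 was lost without any 1 of the 4 libraries (0.118 to 0.231). Ugt1a7c was lost without choroid plexus bound replicate 1 (0.160) or 2 (0.0793) or cortex bound replicate 1 (0.171), and Cyp4f16 without choroid plexus bound replicate 1 (0.101) or 2 (0.0831) or cortex bound replicate 2 (0.166).

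Gstm7 was the member that passed between stabilized and WT samples in posterior pituitary ECs and in bound RNA of both tissues. In the posterior pituitary Gstm7 was at 2.72 and 0 coding TPM in WT ECs and 130 and 166 in stabilized ECs. It was the only 1 of 40 members to pass, and higher, against 1.79% of all genes in either direction and 1.25% higher (log2 fold change 6.96 ± 1.52, edgeR adjusted p = 0.0402). Without WT posterior pituitary GFP-positive replicate 2, which had no read, it was 6.11 (adjusted p = 0.0793). Cell type markers differed between the same libraries: summed EC markers were at 5977 and 7127 coding TPM in WT ECs of this lobe and at 2594 and 2605 in the stabilized ones, and the 4 microglia genes at 1.54 and 0.175 and then 75.96 and 64.4. Their part in this and the other genotype differences of that lobe was not tested. In GFP-negative cells of that lobe Gstm7 was at 3.52 and 0 in WT and 22.9 and 12.7 in stabilized mice (adjusted p = 0.537).

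In bound RNA Gstm7 rose in both tissues. Choroid plexus bound RNA held 5.08 and 12.1 coding TPM in WT and 89.5 and 77.6 in stabilized mice, while input held 7.39 and 4.39 and then 9.40 and 8.77. The log2 fold change in bound RNA was 4.19 ± 0.42 (adjusted p = 0.00349), and Gstm7 was the only 1 of 43 members to pass, against 0.852% of all genes in either direction and 0.656% higher. In these libraries the 7 choroid plexus epithelium genes summed to 97150 and 97500 in WT and 65650 and 63980 in stabilized mice, and EC markers to 983 and 1162 and then 1678 and 1347. Cortex bound RNA held 17.8 and 36.1 in WT and 166 and 152 in stabilized mice (3.23 ± 0.38, adjusted p = 0.00263). Both calls held without any 1 library. In input, the cortex had 19.7 and 7.28 in WT and 31.4 and 22.3 in stabilized mice (1.92 ± 0.40, adjusted p = 0.0125, lost without stabilized input replicate 1, 0.0722), and the choroid plexus call was not made (0.47 ± 0.42, adjusted p = 0.861).

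In cerebellum ECs, where WT was already at 71.5 and 94.0 coding TPM, stabilized ECs held 150 and 233 (log2 fold change 1.26 ± 1.16, adjusted p = 0.752). In anterior pituitary ECs Gstm7 went from 5.53 and 0.223 to 14.2 and 47.0 (2.59 ± 1.23, adjusted p = 0.698). The 4 microglia genes of the same anterior pituitary libraries summed to 11.9 and 0.028 coding TPM in WT and 43.1 and 98.96 in stabilized ECs, and their part was not tested. The difference of the effect between posterior and anterior lobes was 4.36 ± 1.77 (adjusted p = 0.512), and no member passed that test (0 of 40 by edgeR, against 0.128% of all genes). DESeq2 called 0 of 31 (3.1% of all genes), and 7 of 40 were at an unadjusted p under 0.05 in edgeR (9.09% of all genes). The 7 Gstm genes summed had a log2 fold change of 1.26 (adjusted p = 0.0343) in posterior pituitary ECs, 1.17 (adjusted p = 0.0137) in cortex bound RNA and 0.48 (adjusted p = 0.356) in choroid plexus bound RNA.

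**Figure D2:**
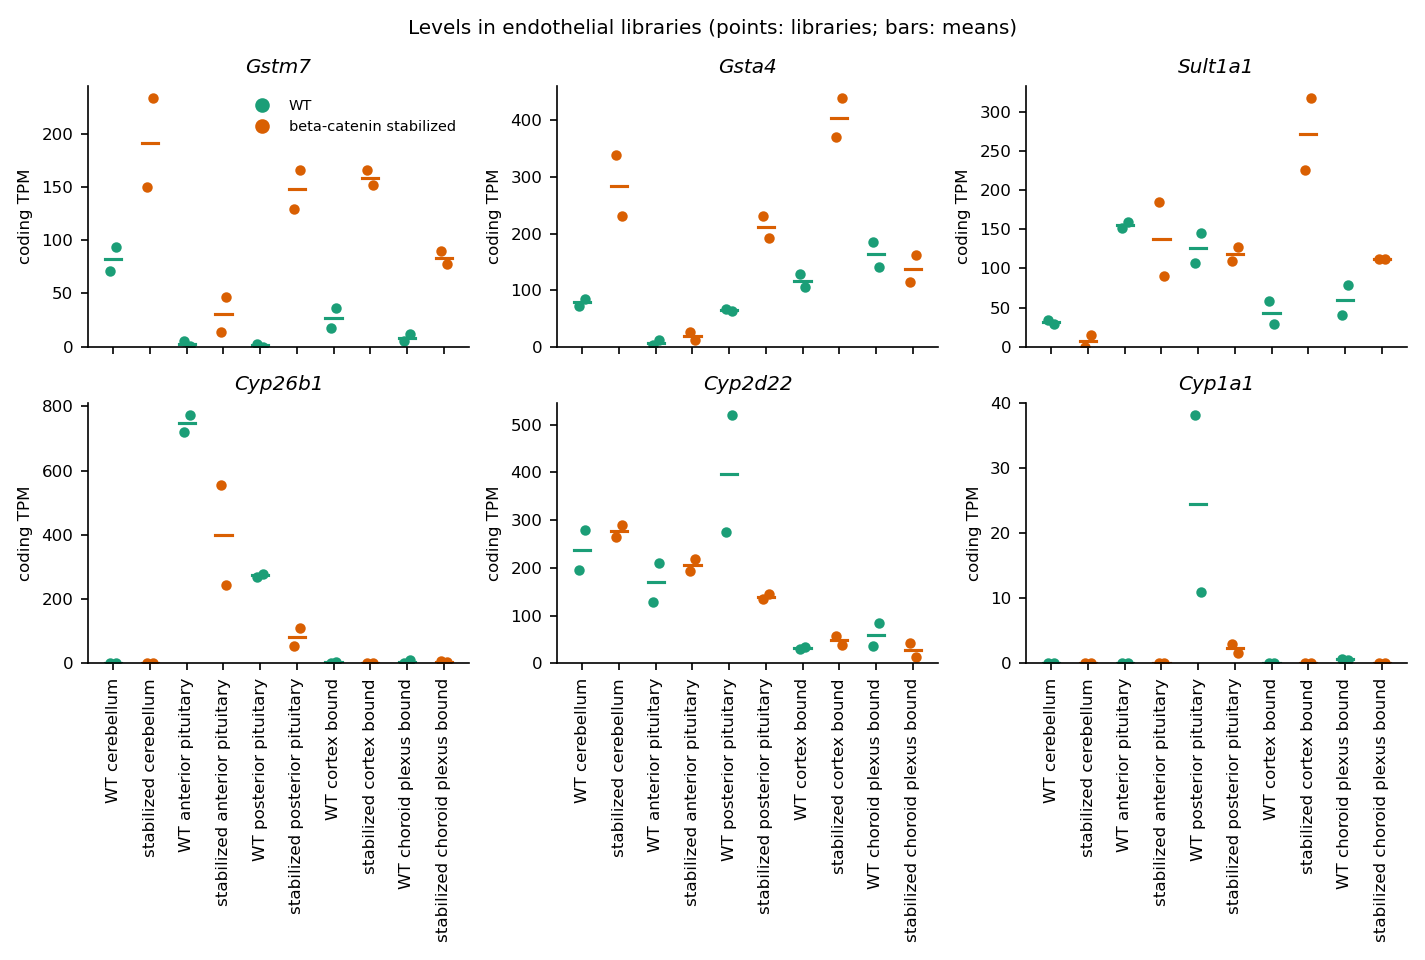
Coding TPM of 6 genes in each GFP-positive and bound library, with points for libraries and bars for the means of 2 replicates. Gstm7 is low in WT pituitary ECs and at 130 and 166 in stabilized posterior pituitary ECs, whereas Cyp26b1 is high in the 4 pituitary EC groups only.

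Chromatin 3′ of Gstm7 moved the same way. The peak whose centre is printed above begins 2501 bases beyond the 3′ end of Gstm7, overlaps no annotated gene, and is nearest to Gstm7, then to Gstm6 at 15014 bases. WT cerebellum ECs had a peak there with fold enrichments of 10.5 and 12.3, and stabilized cerebellum ECs 16.8 and 15.9. The 4 WT pituitary libraries had no peak, and the stabilized ones had 15.7 and 12.5 in the anterior and 8.13 and 7.05 in the posterior lobe. At the Gstm7 promoter all 12 libraries had a peak, from 12.2 to 20.2. In replicate 1 of stabilized ECs, 9.69% (cerebellum), 6.72% (anterior) and 7.39% (posterior pituitary) of all peaks hold TTCAAAG or ATCAAAG on either strand within 100 bases of their summit. This site was picked for its change, and peaks present in both stabilized and neither WT library within 100 kb of a gene were common: they lay near 52.2% of all protein-coding genes in the posterior and 27.4% in the anterior pituitary, and near 53 and 31 of the 155 members.

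**Figure D3:**
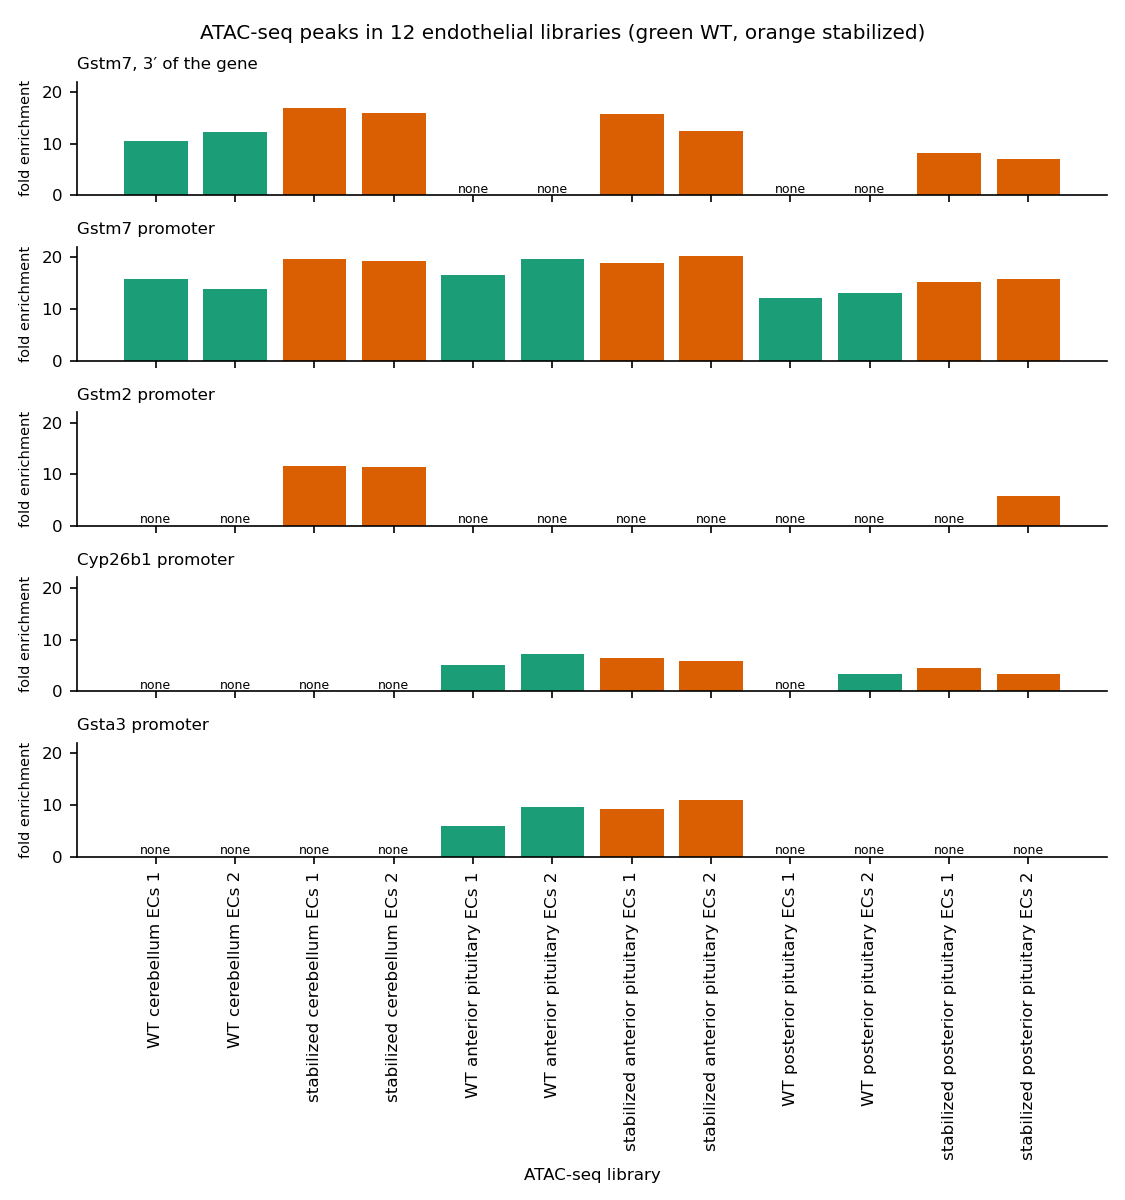
Fold enrichment over background (bars) of ATAC-seq peaks in 12 EC libraries, with "none" where no peak was called. The site 3′ of Gstm7 has no bar in the 4 WT pituitary libraries and bars of 7.05 to 15.7 in the stabilized ones, and the Cyp26b1 and Gsta3 promoters have none in cerebellum.

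Other members gave wide differences in stabilized ECs that did not pass. In posterior pituitary ECs Gsta4 went from 66.3 and 63.1 to 232 and 193 coding TPM (log2 fold change 2.03 ± 0.56, adjusted p = 0.104) and Gstm1 from 391 and 398 to 752 and 989 (0.97 ± 0.28, adjusted p = 0.117). Cyp26b1 went from 269 and 279 to 52.7 and 109 (-1.45 ± 0.63, adjusted p = 0.347), Cyp2d22 from 274 and 520 to 135 and 145 (-0.83 ± 0.27, adjusted p = 0.169) and Cyp1a1 from 38.1 and 10.9 to 3.02 and 1.61 (adjusted p = 0.514). In this comparison 12 of 40 members were at an unadjusted p under 0.05, against 12.9% of all genes, and DESeq2 called 7 of 31 members, against 8.29%. The median log2 fold change of the 40 members was 0.72, beside 0.01 over all genes. The marker levels given above for these libraries, lower EC and higher microglia sums in stabilized ECs, hold for these values too.

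Gsta3 had no read in WT posterior pituitary ECs and 10.7 and 7.5 coding TPM in stabilized ones, at least 44.6-fold more (adjusted p = 0.114). Its promoter had a peak in the 4 anterior pituitary libraries (5.90 and 9.66 in WT, 9.27 and 10.9 in stabilized ECs) and in none of the other 8. Peak totals differed between these libraries, as given above. Its RNA in anterior pituitary ECs was 9.99 and 23.9 in WT and 38.5 and 27.2 in stabilized mice (edgeR adjusted p = 0.927).

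No member passed in stabilized against WT cerebellum or anterior pituitary ECs (0 of 40 each by edgeR, against 0.648% and 0.458% of all genes). At an unadjusted p under 0.05 there were 3 and 2 of 40 (9.77% and 6.99% of all genes), and DESeq2 called 2 of 31 and 0 of 33 (5.21% and 3.29% of all genes). In cerebellum ECs Gsta4 went from 72.2 and 84.4 to 339 and 231 coding TPM (log2 fold change 2.28 ± 0.56, adjusted p = 0.117). The Gstm2 promoter had peaks in both stabilized cerebellum libraries (11.67 and 11.48) and in neither WT library, while its RNA was 13.0 and 43.7 in WT and 65.8 and 9.33 in stabilized ECs. Such a gain in cerebellum ECs was found at 1.58% of all protein-coding genes, and the stabilized cerebellum libraries held more peaks than WT, as given above. In anterior pituitary ECs Cyp26b1 went from 721 and 773 to 555 and 244 (-1.02 ± 0.62, adjusted p = 0.700).

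**Figure D4:**
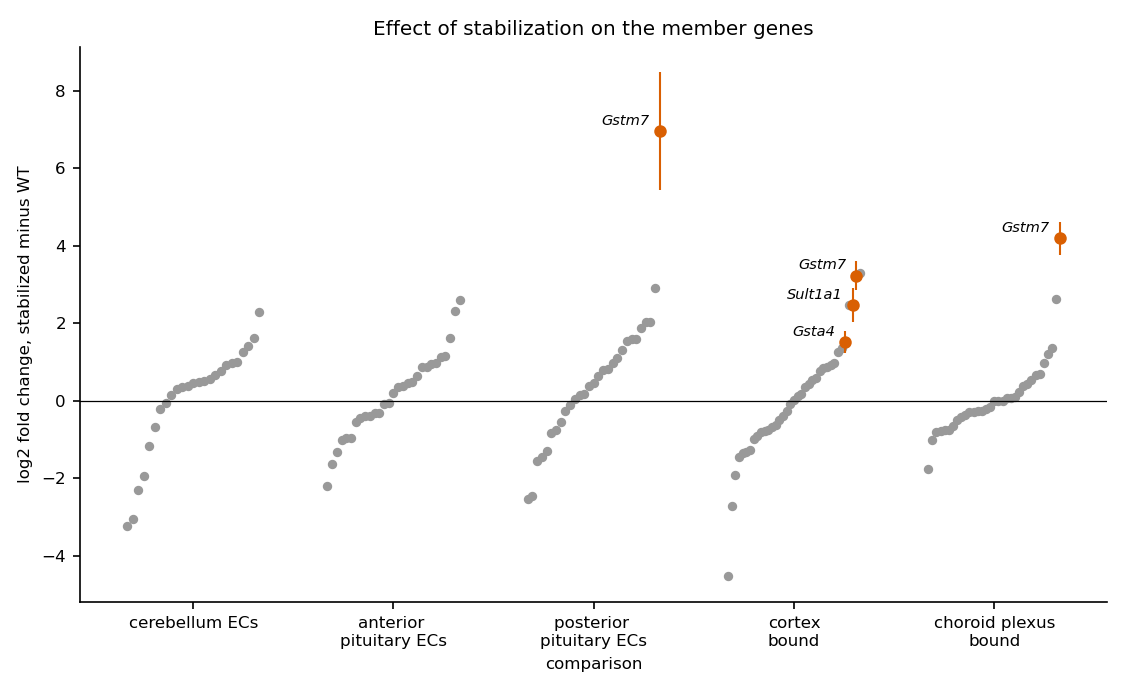
Log2 fold change, stabilized minus WT, of each member with over 3 reads in both groups (points) in 5 comparisons, with genes that passed in orange and their SE as lines. Gstm7 passed in posterior pituitary ECs (6.96), cortex bound RNA (3.23) and choroid plexus bound RNA (4.19), and no member passed in cerebellum or anterior pituitary ECs. Cyp4b1, which passed as lower in cortex bound RNA, had 1 read in stabilized mice and is not drawn.

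In cortex bound RNA 4 of 43 members passed (6.32% of all genes), 3 higher (3.65% of all genes) and 1 lower (2.67%). Markers of other cells were lower in the stabilized libraries: 4 oligodendrocyte genes summed to 2420 and 2560 coding TPM in WT and 629 and 671 in stabilized mice, 5 neuron genes to 2610 and 3211 and then 1587 and 1398, and 4 microglia genes to 2618 and 1879 and then 1399 and 1375. EC markers were at 1170 and 581 and then 1269 and 1341, and the part of these shifts in the member values was not tested. Sult1a1 was at 57.8 and 29.5 coding TPM in WT and 226 and 317 in stabilized mice (log2 fold change 2.47 ± 0.44, adjusted p = 0.0131, held without any 1 library). Gsta4 went from 128 and 105 to 371 and 439 (1.51 ± 0.28, adjusted p = 0.0162), lost without stabilized replicate 1 (0.0539) or 2 (0.0823). Cyp4b1 was at 50.8 and 5.54 in WT and 0 and 0.265 in stabilized mice (ratio 0.00506, 95% counting interval 0.000128 to 0.0284, adjusted p = 0.0403), lost without either stabilized library (0.199 and 0.126) or WT replicate 1 (0.231), and the kidney tubule transcripts given above moved with it.

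Cortex input had 5 of 43 members called, against 11.8% of all genes, and all 5 were higher (8.44%). Gstm5 was at 91.9 and 93.6 coding TPM in WT and 270 and 257 in stabilized mice (1.81 ± 0.11, adjusted p = 5.16e-05) and Sult1a1 at 7.34 and 6.41 against 25.1 and 18.4 (1.68 ± 0.23, adjusted p = 0.00226), and both held without any 1 library. Besides Gstm7, Gstm2 (1.95 and 2.63 against 5.45 and 3.68) was lost without stabilized replicate 1 (0.106) or WT replicate 1 (0.0558), and Ugt1a6a, with 9 reads against 0, was lost without stabilized replicate 1 (0.133) or WT replicate 1 (0.0797) or 2 (0.0867). The Ugt1a genes summed had the opposite direction there (-1.25, adjusted p = 0.146). The share of TPM in short transcripts differed between the same groups, as given above. The 5 neuron genes summed to 5853 and 6008 coding TPM in WT and 3514 and 4430 in stabilized input, the 4 oligodendrocyte genes to 6617 and 4656 and then 3386 and 3209, and the 7 choroid plexus epithelium genes to 218 and 199.6 and then 217 and 1389. Their part was not tested.

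No member passed in choroid plexus input (0 of 43 by edgeR, against 0.106% of all genes). There 5 of 43 were at an unadjusted p under 0.05 (7.41% of all genes) and DESeq2 called 0 of 39 (0.841%).

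None of 54 members passed by edgeR in GFP-negative cells of the cerebellum (0.76% of all genes), the anterior pituitary (0.0408%) or the posterior pituitary (0.133%). At an unadjusted p under 0.05 were 5 (10.9% of all genes), 4 (5.51%) and 12 (9.94%) of the 54. DESeq2 called 2 of 38 (6.09% of all genes), 0 of 39 (1.8%) and 7 of 39 (5.12%).

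Of 61 other pathway genes, 60 were found and 54 could be tested in sorted ECs. In stabilized posterior pituitary ECs 2 passed (1.79% of all genes), both higher: Aldh1a1, which makes retinoic acid, from 0.353 and 8.92 to 178 and 136 coding TPM (log2 fold change 5.33 ± 1.05, adjusted p = 0.0295), and Maoa, which oxidizes monoamines, from 7.17 and 7.0 to 80.7 and 73.7 (3.39 ± 0.39, adjusted p = 0.000687). In stabilized cerebellum ECs 2 passed (0.648% of all genes), both lower: the carboxylesterase Ces2e, from 6.82 and 8.04 to 0.0612 and 0 coding TPM (adjusted p = 0.000127), and Papss2, which supplies the sulfate donor of SULT enzymes, from 5.63 and 10.3 to 0.0289 and 0.397 (-5.19 ± 0.73, adjusted p = 0.00621). None passed in anterior pituitary ECs (0.458% of all genes). Both Ces2e (177 and 257) and Papss2 (42.8 and 38.7) were at higher levels in WT anterior pituitary ECs than in WT cerebellum ECs (cerebellum over anterior pituitary -4.43 ± 0.44 and -2.31 ± 0.61, adjusted p = 4.75e-05 and 0.0471), whereas Maoa was higher in cerebellum ECs (224 and 278 against 17.9 and 19.6, 3.69 ± 0.40, adjusted p = 8.26e-05).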

How the data were processed

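The authors quantified each of 40 RNA-seq libraries with Salmon 0.10.2 (single-end, 75 cycles), per the submitters' processing notes, and deposited expected counts (estimated reads) and TPM per transcript. Both were summed by gene with the GENCODE M21 annotation of GRCm38. After rounding, gene sums entered edgeR 4.0.16 (quasi-likelihood, TMM, filterByExpr, Benjamini-Hochberg over all genes), used in place of the study's EBSeq. DESeq2 1.42.0 was an alternative. No block was used in the main test. Same-numbered bound and input, and GFP-positive and GFP-negative, samples were taken as pairs because the study's methods split 1 preparation into both fractions (the labels do not state that the numbers mark this). Their deviations correlated at -0.004 to 0.091, and a fit with preparation as the block was an alternative. Called genes changed at least 2-fold with an adjusted p below 0.05. Scripts were tested on simulated data. Tables were joined by label, and 0 value columns were left unmapped.

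For 12 ATAC-seq libraries the authors deposited MACS2 2.1.1.20160309 peaks, after Bowtie2 2.3.2, with fold enrichment (a ratio) and −log10 q-values. Peaks of at least 2-fold and −log10 q of 2 were kept.

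Genes and lists were chosen with earlier results of these data known. Members were named if called between genotypes, among the 3 highest by TPM in a WT group, among the 3 largest called changes a direction in WT comparisons (with both libraries of the higher group at 5 TPM), or highest in their role. Other called members were named after their values were seen.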

Additional observations from a re-analysis of the deposited data

How the results depend on the processing

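With DESeq2 in place of edgeR the members called numbered 12 of 41 tested for WT cerebellum ECs against GFP-negative cells and 5 of 31 between the pituitary lobes. For stabilized against WT samples DESeq2 gave 2 of 31 in cerebellum ECs and 7 of 31 in posterior pituitary ECs. In GFP-negative cells DESeq2 gave 2 of 38 in cerebellum and 7 of 39 in posterior pituitary. In bound RNA it gave 8 of 40 in cortex and 2 of 35 in choroid plexus. Where no share of all genes with DESeq2 is given above, these counts show only the dependence on the tool. Without the filter on low counts there were 7 between cerebellum and anterior pituitary ECs, 5 between the lobes, and for stabilization 3, 2 and 4 in cerebellum, anterior and posterior pituitary ECs, 1 for the difference between lobes, 2 and 5 in cerebellum and posterior pituitary GFP-negative cells, 8 and 2 in cortex and choroid plexus bound RNA, and 9 and 1 in their inputs. The counts without the filter are not set beside the share of all genes called in the same fits. They therefore show only the dependence on the filter. At 5 TPM in both replicates 25 members were expressed.

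The ranges in this paragraph are not set beside the share of all genes called in the same fits. They show only how far the member counts depend on single libraries. Leaving out 1 library at a time gave, for ECs against GFP-negative cells, 1 to 5 in cerebellum, 4 to 5 in anterior and 5 to 8 in posterior pituitary. It gave 3 to 5 for cerebellum against anterior pituitary ECs, 3 to 4 against posterior, and 0 to 2 between the lobes. Bound against input gave 4 to 9 in cortex and 3 to 7 in choroid plexus, and cortex against choroid plexus bound RNA 4 to 7. Stabilization gave 0 to 2 in cerebellum ECs, 0 to 1 in anterior and 0 to 4 in posterior pituitary ECs, 0 to 2 for their difference, 0 to 1 and 0 to 4 in cerebellum and posterior pituitary GFP-negative cells, 2 to 5 and 1 to 1 in cortex and choroid plexus bound RNA, 2 to 6 in cortex input, and 0 to 0 in anterior pituitary GFP-negative cells and choroid plexus input.

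Between tissues and genotypes replicates shared only a number, apart from the pituitary lobes, which came from the same mice: deviations of same-numbered samples correlated at -0.21 to 0.021. There a replicate block gave 1 call against 0 for stabilized against WT posterior pituitary GFP-negative cells (Cyp2j9, adjusted p = 0.0301) and kept Gsta4 between the lobes. The block lost Cyp4b1 in stabilized against WT cortex bound RNA (adjusted p = 0.0665). It lost Gstp1 (0.0591) and Cyp4f16 (0.0597) between WT cortex and choroid plexus bound RNA, and it added Gstt1 in stabilized against WT cortex input (0.0401). For paired fractions it changed no calls other than those given above, and it moved no other count by over 1.5 times. Summed clusters, chosen for Gstm after seeing the data, had the opposite direction to a called member in 3 cases. These were log2 0.64 beside Gstm5 in posterior pituitary ECs, -0.55 beside Gstm2 in cortex bound against input, and -1.25 beside Ugt1a6a in stabilized cortex input. A sum also counts the other genes of the cluster, and Gstm5 shares no 31-base word with another gene. The causes were not tested. Of the other settings for single genes, 387 kept the call and 116 lost it in the same direction. Low counts limit Sult5a1 and Ugt1a6a.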
